A study of Mus musculus with 17 samples.

Results

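Islets of inducible β cell-specific Pax4 knockout mice (Pax4 βiKO, 3 samples) were compared with islets of control mice (2 samples) by bulk RNA-seq. These 5 samples were chosen from the 17 of the series by their labels alone. Control mice carried Pax4 floxed/floxed alleles without Cre, and βiKO mice carried Pax4 floxed/floxed alleles together with Pdx1-CreERT2. Both groups were male, had received tamoxifen, were fed a high-fat diet (HFD) for 8 weeks and were 20 weeks old. The other samples of the series came from homozygous Pax4 R192H knock-in mice and wildtype littermates, also male. Of those, 6 samples, on an HFD for 4 weeks at 16 weeks of age, are set beside some genes below. The rest of them came from mice fed standard chow, at 12 weeks of age. The comparison asks which transcripts depend on Pax4 in adult islets under metabolic stress. CreERT2 joins Cre recombinase to a modified part of the estrogen receptor, so that tamoxifen brings it into the nucleus, and here the Pdx1 promoter drives it. Pdx1 is active in β cells and in some other islet cells, which limits the knockout as a β cell model. Control mice lacked the transgene, so Cre itself and the loss of Pax4 cannot be told apart. The labels call the samples biological replicates and do not say how many mice gave each, so the p-values measure the spread between these samples.

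PAX4 is a paired-homeodomain transcription factor that directs endocrine precursors towards the β cell fate in the embryo and is expressed at a low level in adult β cells. A mature β cell is held in its state by a network of transcription factors that includes PDX1, NKX6-1 and MAFA. It takes up glucose through GLUT2 and releases insulin when glucose metabolism closes potassium channels and opens calcium channels. Loss of this network together with the return of genes such as Aldh1a3 is known as dedifferentiation.

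The RSEM expected counts summed to 28618835 to 31887537 per sample, of which 3 counts are 9.41e-06 to 1.05e-05 percent. Levels are given as counts-per-million values (CPM) after TMM scaling for library size and composition. Of 73212 gene identifiers, 20167 had enough counts to be tested. Pax4 itself had 0 counts in all 5 samples, so the deletion could not be checked from these libraries. Islet hormones were high in every sample. Ins2, an insulin gene, had 62329 and 69229 CPM in the control samples and 61135, 66336 and 59566 CPM in the βiKO samples, with overlapping groups. Iapp, the amyloid peptide co-secreted with insulin, named after its values were seen, had 30054 and 31669 CPM in the control samples and 42832, 40493 and 39288 CPM in the βiKO samples. Genes of acinar cells, the enzyme-producing cells that surround the islets, set replicate 1 of each group apart. Summed over the 30 acinar markers tested, the level was 113319 and 24984 CPM in the control samples and 87629.8, 18020.5 and 23318 CPM in the βiKO samples. Their part in the results was not tested as a cause, and a fit with the acinar level as a covariate is given beside the calls.

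In the edgeR quasi-likelihood test, 18 of 20167 genes (0.0893%) were called at an adjusted p below 0.05 with a log2 fold change beyond 0.5. They were 12 genes higher in βiKO islets (0.0595%) and 6 lower (0.0298%). At an unadjusted p below 0.05 there were 1256 higher genes (6.23%) and 1335 lower genes (6.62%). All values of 1 group lay above all values of the other for 3216 genes higher in βiKO (15.9%) and 3362 genes lower (16.7%), and the 18 called genes were among them. DESeq2 called 251 genes of the 12441 it gave an adjusted p (2.02%), 101 higher (0.812%) and 150 lower (1.21%), and 17 of the 18 edgeR calls were also DESeq2 calls. Most edgeR calls were lost when 1 sample was left out. Of the 18, 2 were still called without control 1, 3 without control 2, 9 without βiKO 1, 3 without βiKO 2 and 16 without βiKO 3. With the acinar level as a covariate, edgeR called 14 genes, 10 of them among the 18. The other 8, which were Prss23, Gm34225, Itpkb, Eda2r, Dglucy, Rims3, Robo1 and T2, then had an edgeR adjusted p of 0.0511 to 0.0941. Esr1 and an unnamed gene, ENSMUSG00000125531.1, were called under each of the 5 omissions of a sample.

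**Figure D1:**
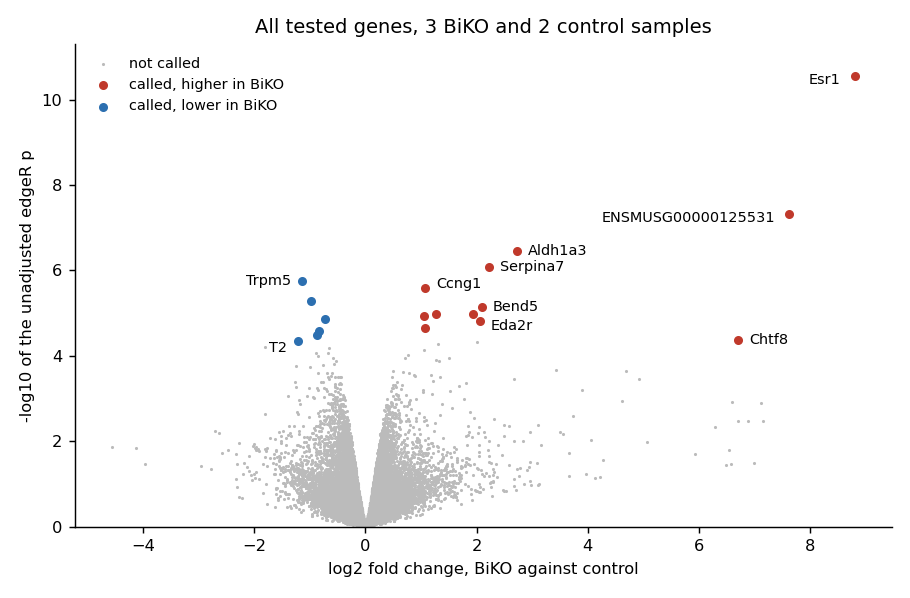
Each point is 1 of the 20167 tested genes, with the log2 fold change of 3 βiKO against 2 control samples on the x axis and the negative log10 of the unadjusted edgeR p on the y axis. The 12 higher and 6 lower calls are coloured, some with their names, and Esr1 has the smallest p.

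Esr1, the gene of estrogen receptor α, had the smallest p of all tested genes. It had 0.706 and 0.530 CPM in the control samples and 265, 273 and 298 CPM in the βiKO samples, a rise of 8.82 ± 0.16 log2 units (SE), with an edgeR adjusted p of 5.68e-07. CreERT2 carries a part of the human form of this receptor, and whether reads of the transgene were counted to Esr1 was not tested. A gene absent from GENCODE M21, ENSMUSG00000125531.1, moved with it, with 2 and 1 counts in the control samples and 385, 348 and 324 counts in the βiKO samples. The ratio of counts scaled to library size was 213, with a 95% counting interval of 72.6 to 1033. Chtf8, a subunit of a clamp loader used in DNA replication, was called through a second gene identifier only. That identifier had 0 and 1 counts in the control samples and 39, 106 and 72 in the βiKO samples, a ratio of 131 with an interval of 23.3 to 5197 (edgeR adjusted p = 0.0499). It shares exons and strand with the main Chtf8 entry on chromosome 8, which had 1850 and 2233 counts in the control samples and 1972, 2179 and 2548 in the βiKO samples, so the split of reads between the entries is uncertain. The Chtf8 call was lost under each of the 5 omissions of a sample, with an edgeR adjusted p of up to 0.441 without control 1.

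The called genes of the list of dedifferentiation and progenitor markers were Aldh1a3 and Serpina7, both of which the study had named on these samples. Aldh1a3 makes retinoic acid from retinaldehyde and had 9.52 and 11.8 CPM in the control samples and 82.7, 59.9 and 68.9 CPM in the βiKO samples. It rose by 2.72 ± 0.17 log2 units (edgeR adjusted p = 0.00232), and the groups were far apart. Serpina7, which encodes thyroxine-binding globulin, had 57.6 and 66.3 CPM in the control samples and 334, 299 and 239 CPM in the βiKO samples. It rose by 2.23 ± 0.16 log2 units (edgeR adjusted p = 0.00417). The call of Aldh1a3 was lost without control 1 only (edgeR adjusted p = 0.0993), and that of Serpina7 without either control sample or βiKO 2 (adjusted p of up to 0.179). Among the 14 tested members of the list, 11 had a fold change above 0 and these 2 were called, beside 0.0595% of all tested genes called higher. The list's median was 0.39, beside 0.01 over all tested genes. Cck, the cholecystokinin gene, had the highest fold change of the list, with 2 and 3 counts in the control samples and 32, 29 and 31 counts in the βiKO samples. Its ratio was 11.1, with a 95% counting interval of 4.59 to 35.0, but it missed the threshold in edgeR (adjusted p = 0.111). Cd81, a tetraspanin of immature β cells, had 60.3 and 64.7 CPM in the control samples and 82.5, 85.1 and 101 CPM in the βiKO samples, and DESeq2 called it while edgeR did not (edgeR adjusted p = 0.176).

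**Figure D2:**
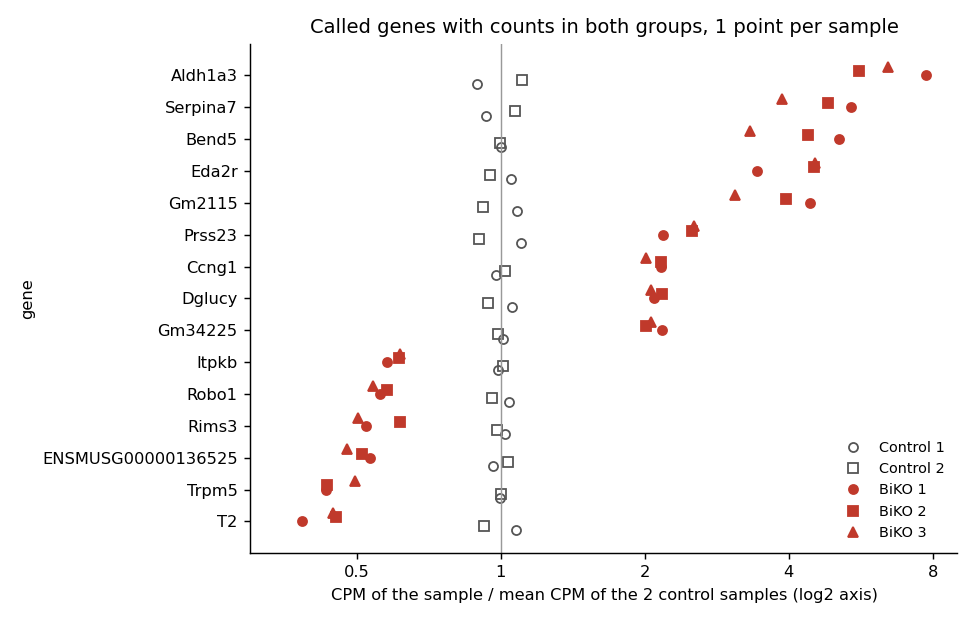
Each row is 1 of the 15 called genes left after Esr1, ENSMUSG00000125531.1 and the second Chtf8 entry, and each point is 1 sample, drawn as its CPM divided by the mean CPM of the 2 control samples on a log2 axis. In every row the 3 βiKO points lie on 1 side of both control points.

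The promoters of Serpina7 and Trpm5 are shown because these genes carry the largest called rise and fall among genes that the study ties to β cell state and that have a promoter in the table used. The bases are the 250 before the start of the gene in RefSeq (GRCm38.p6), 5′ to 3′ on the strand of the gene. Capitals mark TAAT on either strand (so also ATTA), the core read by many homeodomain proteins. Serpina7 lies at chrX:139085237-139085486 on the minus strand with 3 matches, and Trpm5 at chr7:143094643-143094892 on the minus strand with 1 match.
Serpina7: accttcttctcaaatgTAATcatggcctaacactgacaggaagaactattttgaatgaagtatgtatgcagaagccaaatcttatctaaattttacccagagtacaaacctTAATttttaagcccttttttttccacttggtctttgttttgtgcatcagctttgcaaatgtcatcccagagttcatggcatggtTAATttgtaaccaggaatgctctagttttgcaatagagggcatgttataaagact
Trpm5: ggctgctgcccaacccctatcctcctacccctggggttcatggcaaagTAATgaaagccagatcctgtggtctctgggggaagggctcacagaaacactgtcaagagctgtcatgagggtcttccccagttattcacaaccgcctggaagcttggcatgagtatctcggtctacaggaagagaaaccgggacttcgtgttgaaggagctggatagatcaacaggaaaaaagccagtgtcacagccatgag
TAAT or ATTA stood in 15 of the 23 promoter windows of the called genes (65.2%) and in 54.9% of the 32851 windows of all genes. Each window was the 250 bases before a start. Of the 18 called genes, 14 had a window, and Aldh1a3 had none. A match describes these letters only.

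Among the called genes that fell, Trpm5 is a calcium-activated cation channel that adds to depolarisation in β cells. It had 129 and 129.5 CPM in the control samples and 55.7, 56.0 and 64.3 CPM in the βiKO samples, and the βiKO values lay close together well below the controls. It fell by 1.14 ± 0.09 log2 units (edgeR adjusted p = 0.00732). Itpkb, a kinase that phosphorylates inositol trisphosphate and so takes part in calcium signalling, had 112 and 115 CPM in the control samples and 65.7, 69.8 and 70.1 CPM in the βiKO samples (log2 fold change -0.73 ± 0.08, edgeR adjusted p = 0.0231). Rims3, a protein of the presynaptic active zone family that acts in vesicle release, had 101 and 96.8 CPM in the control samples and 51.7, 60.8 and 49.8 CPM in the βiKO samples (log2 fold change -0.87 ± 0.10, edgeR adjusted p = 0.0416). In all 3, each βiKO sample was below both controls. Robo1, a receptor of the SLIT guidance cues, had 34.9 and 32.2 CPM in the control samples and 18.7, 19.4 and 18.1 CPM in the βiKO samples (log2 fold change -0.84 ± 0.09, edgeR adjusted p = 0.0350). T2, brachyury 2, which shares exons on its strand with AC164431.1 so that its reads are uncertain, had 14.9 and 12.8 CPM in the control samples and 5.34, 6.29 and 6.19 CPM in the βiKO samples (log2 fold change -1.22 ± 0.15, edgeR adjusted p = 0.0499). The unnamed gene ENSMUSG00000136525.1 had 56.5 and 60.9 CPM in the control samples and 31.3, 30.2 and 28.0 CPM in the βiKO samples (edgeR adjusted p = 0.0149). In none of these 6 genes did the groups overlap. Their calls depended on single samples. Trpm5 was not called without either control sample or βiKO 2 (edgeR adjusted p of up to 0.179), Itpkb, Rims3, Robo1 and ENSMUSG00000136525.1 kept their calls under 1 omission alone, that of βiKO 3, and T2 under no omission (adjusted p of up to 0.514 without control 1).

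Ccng1 and Eda2r, which both rose, are known targets of p53, the transcription factor that DNA damage and other stresses activate. Ccng1, which encodes cyclin G1, had 188 and 197 CPM in the control samples and 417, 418 and 389 CPM in the βiKO samples. It rose by 1.08 ± 0.09 log2 units (edgeR adjusted p = 0.00851). Eda2r, a receptor of ectodysplasin A2, had 2.12 and 1.92 CPM in the control samples and 6.93, 9.13 and 9.17 CPM in the βiKO samples, and it rose by 2.06 ± 0.21 log2 units (edgeR adjusted p = 0.0234). Both genes lost their calls without control 1, control 2 or βiKO 2, with an edgeR adjusted p of up to 0.199 for Ccng1 and 0.330 for Eda2r. Because these calls had been seen, a list of 44 p53 genes was then written, and its members are described and not used as support. Phlda3, an inhibitor of AKT signalling, lay just outside the threshold, with 1.38 and 1.99 CPM in the control samples and 5.96, 6.77 and 7.76 CPM in the βiKO samples (log2 fold change 2.02 ± 0.25, edgeR adjusted p = 0.05001). Cdkn1a, which encodes the cell cycle inhibitor p21, had 5.58 and 3.78 CPM in the control samples and 12.8, 15.2 and 11.8 CPM in the βiKO samples (log2 fold change 1.51 ± 0.21, edgeR adjusted p = 0.0758, DESeq2 adjusted p = 4.35e-08). In each of these 4 genes the lowest βiKO value was above the highest control value.

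Further members, named after their values were seen, showed smaller differences. Aen, a nuclease of the apoptotic response, had 15.5 and 22.7 CPM in the control samples and 31.8, 32.1 and 34.5 CPM in the βiKO samples, a log2 fold change of 0.78. Trp53inp1, a stress-induced partner of p53, had 127 and 94.6 CPM in the control samples and 142, 189 and 144 CPM in the βiKO samples, a log2 fold change of 0.52. Rps27l, a ribosomal protein S27-like gene, had a log2 fold change of 0.43, and Bax, which opens the outer mitochondrial membrane in apoptosis, one of 0.33. For the inhibitors of p53 the values went in opposite directions, with 107 and 105 CPM in the control samples and 88.4, 94.4 and 81.9 CPM in the βiKO samples for Mdm4 (log2 fold change -0.27), and 39.3 and 40.8 CPM in the control samples and 43.1, 45.7 and 60.2 CPM in the βiKO samples for Mdm2 (log2 fold change 0.31). None of these was called by edgeR (smallest adjusted p 0.173). Over the 43 tested p53 genes, 2 were called higher by edgeR, beside 0.0595% of all tested genes, and 6 by DESeq2, beside 0.812%, and 14 were higher and 1 lower at an unadjusted p below 0.05, where 6.23% of all genes were higher. Groups did not overlap for 17 members higher in βiKO (39.5%, beside 15.9% of all genes) and 2 lower (4.65%, beside 16.7%). The median log2 fold change was 0.30, with 0.18 without control 2 and 0.38 without control 1. Without Ccng1 and Eda2r, the genes that prompted the list, 12 of 41 members were higher and 1 was lower at that unadjusted p, and the median was 0.23. The summed level of the list was 1469 and 1293 CPM in the control samples and 1647, 1811 and 1696 CPM in the βiKO samples, so that every βiKO sample was above both controls.

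**Figure D3:**
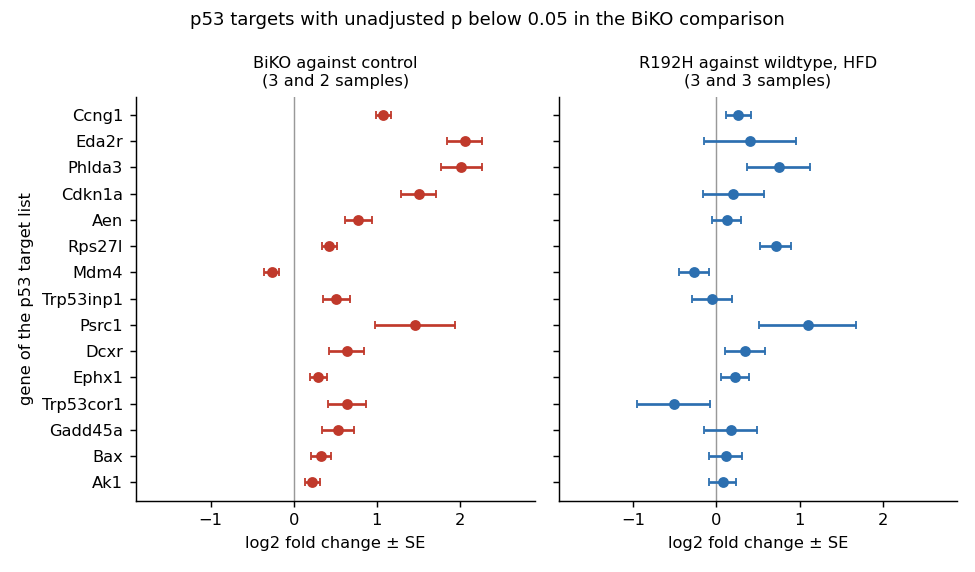
Points are log2 fold changes and bars their standard errors for the 15 p53 genes with an unadjusted p below 0.05 in the βiKO comparison (left, 3 against 2 samples), with the same genes in R192H against wildtype islets on an HFD on the right (3 against 3 samples). The genes were picked by the left panel, where 14 lie above 0, and the right panel is a separate set of samples.

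The promoter of Cdkn1a is printed because it holds a spaced pair of the CATG core of the p53 site. It covers the 250 bases before the start at chr17:29090729-29090978 on the plus strand (RefSeq, GRCm38.p6), and capitals mark the match to CATGNNNNNNCATG, which begins 48 bases before the start.
Cdkn1a: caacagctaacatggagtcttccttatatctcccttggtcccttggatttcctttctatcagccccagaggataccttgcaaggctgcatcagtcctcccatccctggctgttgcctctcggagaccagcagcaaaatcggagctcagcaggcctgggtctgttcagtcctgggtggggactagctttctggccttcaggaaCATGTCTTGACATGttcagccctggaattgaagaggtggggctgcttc
This pattern, which reads the same on both strands, stood in 161 of all 32851 windows (0.49%), in 1 of the 33 p53 genes with a window, and in 1 called gene, Prss23.

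The other called genes that rose have varied roles. Prss23, a serine protease, had 18.4 and 15.1 CPM in the control samples and 36.5, 41.9 and 42.4 CPM in the βiKO samples (log2 fold change 1.27 ± 0.13, edgeR adjusted p = 0.0212). Bend5, a BEN domain protein that can repress transcription, had 5.09 and 5.07 CPM in the control samples and 25.9, 22.3 and 16.9 CPM in the βiKO samples (log2 fold change 2.09 ± 0.20, edgeR adjusted p = 0.0184). Dglucy, which encodes D-glutamate cyclase, had 8.70 and 7.76 CPM in the control samples and 17.2, 17.9 and 17.0 CPM in the βiKO samples (log2 fold change 1.08 ± 0.12, edgeR adjusted p = 0.0326). All 3 were higher in each βiKO sample than in either control. The predicted genes Gm2115 and Gm34225 rose by 1.93 ± 0.19 and 1.06 ± 0.11 log2 units (edgeR adjusted p = 0.0212 and 0.0217). Prss23 and Bend5 kept their calls without βiKO 1 and without βiKO 3, and Dglucy, Gm2115 and Gm34225 without βiKO 3, while without any other sample they lost them, with edgeR adjusted p of up to 0.330.

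At an edgeR adjusted p below 0.10 there were 36 genes, the 18 calls included. Gc, the vitamin D-binding protein, an α cell gene in islets, had 302 and 319.6 CPM in the control samples and 762, 609 and 575 CPM in the βiKO samples (log2 fold change 1.06 ± 0.14, edgeR adjusted p = 0.0631). Dapl1, a death-associated protein-like gene, had 61.8 and 88.8 CPM in the control samples and 213, 163 and 169 CPM in the βiKO samples (log2 fold change 1.27 ± 0.18). Groups were apart in both. Other uncalled genes with small p and higher values in βiKO were Gsto2, a glutathione transferase (1.31), Inka2, an inhibitor of PAK4 (1.33), Sema3c, a semaphorin (0.77), and Gucy2c, a guanylate cyclase receptor (0.71), as log2 fold changes. Those with lower values were Mlph, melanophilin, which links vesicles to myosin (-1.81), Phactr1, a regulator of actin and protein phosphatase 1 (-0.86), Tmem229b (-0.68), Col6a6, a collagen chain (-0.65), Lgi1 (-0.59), Robo2, the sister receptor of Robo1 (-0.56), and the teneurin Tenm3 (-0.52). DESeq2 called Gc. Of the 5 omissions of a sample, only that of βiKO 3 gave an edgeR call of Gc, and its edgeR adjusted p was 0.607 without control 1.

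β cell identity transcription factors had lower values in βiKO islets as a list, but none was called by edgeR. Of the 25 tested, 24 had a fold change below 0, with a median of -0.27, and 11 were lower and 0 higher at an unadjusted p below 0.05, where 6.62% of all genes were lower. Members of a list share the same samples and are not independent replicates. Their summed level was 1539.7 and 1512 CPM in the control samples and 1311, 1326 and 1239 CPM in the βiKO samples. Nkx6-1, which keeps β cells from taking other islet fates, had 70.2 and 69.9 CPM in the control samples and 48.7, 55.9 and 48.8 CPM in the βiKO samples (log2 fold change -0.45 ± 0.09, edgeR adjusted p = 0.163). Pdx1, the master regulator whose promoter drives the transgene, had 96.8 and 101 CPM in the control samples and 77.3, 76.6 and 75.4 CPM in the βiKO samples (log2 fold change -0.37 ± 0.07). Mlxipl, the glucose-responsive factor ChREBP, had 90.7 and 87.8 CPM in the control samples and 71.3, 64.6 and 52.9 CPM in the βiKO samples (log2 fold change -0.50 ± 0.12). These groups were apart, and the βiKO samples of Pdx1 lay within a narrow range. Mafa, the activator of insulin transcription in mature β cells, varied more among controls, with 54.6 and 85.3 CPM, against 46.6, 41.5 and 42.3 CPM in βiKO samples (log2 fold change -0.69 ± 0.17, edgeR adjusted p = 0.226). The log2 fold change of Mafa was -0.33 without control 2 and -0.97 without control 1. DESeq2 called Mafa and Mlxipl. In bulk islets, fewer β cells and less of these transcripts per β cell cannot be told apart.

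Genes of glucose sensing and stimulus coupling also had mostly lower values. Of the 29 tested, 23 had a fold change below 0 and the median was -0.20. Trpm5 was the only edgeR call, where 0.0298% of all tested genes were called lower. DESeq2 called 5 lower, beside 1.21% of all genes, and 11 (37.9%) were lower and 0 higher at an unadjusted p below 0.05, beside 6.62% of all genes lower. Slc2a2, which encodes the glucose transporter GLUT2, had 1244 and 1182 CPM in the control samples and 651, 784 and 714 CPM in the βiKO samples (log2 fold change -0.76 ± 0.11, edgeR adjusted p = 0.0923). Prkcb, a protein kinase C, had 72.1 and 70.1 CPM in the control samples and 54.4, 51.0 and 43.8 CPM in the βiKO samples (log2 fold change -0.52 ± 0.10). The groups did not overlap in either gene. Smaller log2 fold changes were measured for Glp1r, the receptor of the incretin GLP-1 (-0.46), and Cacna1d, an L-type calcium channel (-0.48), and neither passed the test.

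The exocytosis list, which holds the proteins that dock and fuse granules, had 20 of 26 members below 0, a median of -0.09 and no edgeR call. The median was -0.05 without βiKO 2 and -0.14 without control 1. Cplx2, a complexin that clamps and primes fusion, had 193 and 193 CPM in the control samples and 145, 139 and 114 CPM in the βiKO samples (log2 fold change -0.54 ± 0.11, edgeR adjusted p = 0.173). Vamp2, a vesicle SNARE, had 33.5 and 31.7 CPM in the control samples and 24.8, 23.3 and 16.8 CPM in the βiKO samples (log2 fold change -0.59 ± 0.16). The groups did not overlap in either gene, nor in Sytl4, the granule protein granuphilin (log2 fold change -0.43 ± 0.09). DESeq2 called Cplx2 and Vamp2.

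The hormone and granule list went the other way for part of its members. Of the 22 tested, 14 had a fold change above 0, the median was 0.14, 7 were higher and 3 lower at an unadjusted p below 0.05 (6.23% and 6.62% of all genes), and edgeR called none. Nucb2, the precursor of nesfatin-1, had 274 and 274 CPM in the control samples and 596, 453 and 456 CPM in the βiKO samples (log2 fold change 0.87 ± 0.14, edgeR adjusted p = 0.113). Scg2, the granin secretogranin II, had 11542 and 10012 CPM in the control samples and 15559, 16453 and 17257 CPM in the βiKO samples (log2 fold change 0.61 ± 0.12). Pam, which amidates peptide hormones, had 1231 and 1224 CPM in the control samples and 1992, 1709 and 1843 CPM in the βiKO samples (log2 fold change 0.59 ± 0.11). The groups were apart in all 3. Chgb and Vgf, further granule proteins named after their values were seen, had log2 fold changes of 0.61 and 0.97, and DESeq2 called these 5 genes higher, beside 0.812% of all genes. Ucn3, the urocortin of mature β cells, had 178 and 189 CPM in the control samples and 126, 136 and 139 CPM in the βiKO samples (log2 fold change -0.46 ± 0.08, edgeR adjusted p = 0.140).

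The insulin genes did not separate the groups. Ins1 had 20894 and 22974 CPM in the control samples and 20623, 20672 and 30860.4 CPM in the βiKO samples (log2 fold change 0.13 ± 0.19), with βiKO 3 above the other 4 samples, and the log2 fold change of Ins2 was -0.08 ± 0.11. Both are within the spread of the samples, and both changed sign when single samples were left out, Ins1 to -0.09 without βiKO 3 and Ins2 to 0.0011 without control 2. The hormones of the other islet cells, Gcg (10814 and 13895 CPM in the control samples and 14168, 13945 and 14142 CPM in the βiKO samples), Sst of δ cells (log2 fold change 0.01 ± 0.12) and Ppy of PP cells (0.33 ± 0.20), were not called either. Of 18 α cell genes tested, 8 had a fold change above 0, and the median was -0.00487. The median changed sign under 8 of 13 other settings, from -0.05 without control 1 to 0.20 without control 2. Groups did not overlap for 7 members higher (38.9%, beside 15.9% of all genes) and 5 lower (27.8%, beside 16.7%). The α cell genes with the smallest p besides Gc were Slc7a2, a cationic amino acid transporter (-0.45 ± 0.09), Nrcam, a cell adhesion molecule (-0.81 ± 0.21), and Ttr, transthyretin (0.59 ± 0.16), none of which edgeR called, while DESeq2 called Ttr and Nrcam. Ttr was at 0.38 without control 1, and Nrcam at -0.44 without control 2. For 12 δ, PP and ε cell genes the median was 0.04, and the groups overlapped in each.

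**Figure D4:**
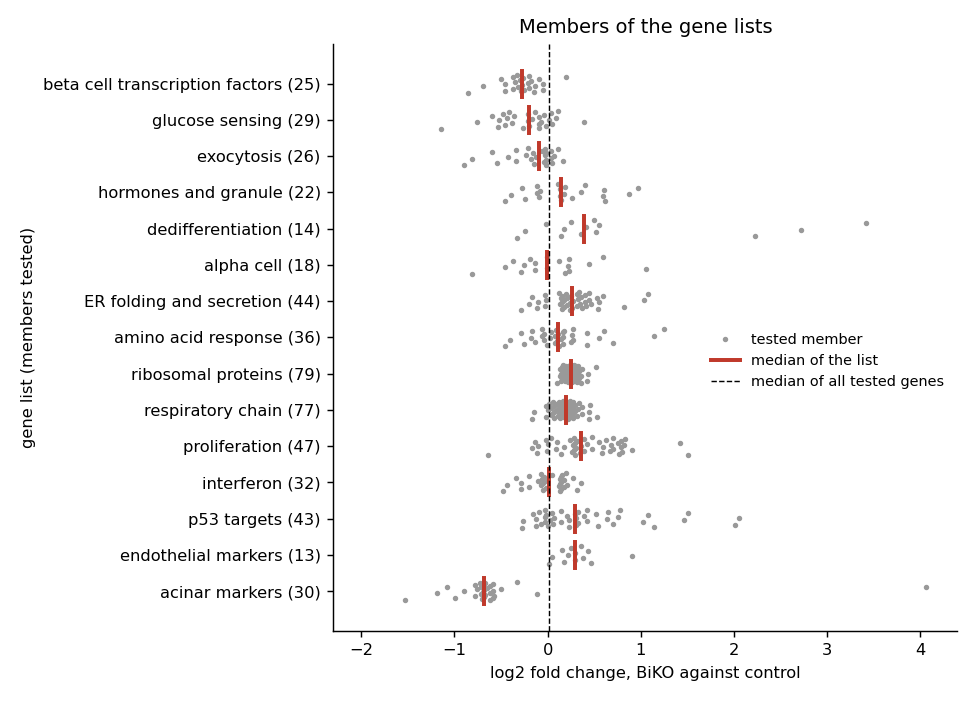
Each row is a gene list, each small point the log2 fold change of a tested member in βiKO against control islets, the red bar the median of the list, and the dashed line the median of all tested genes. All ribosomal protein genes lie right of 0 and nearly all β cell transcription factors left of it, by less than 1 log2 unit for most members.

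Most genes for making and folding protein had higher values in βiKO islets, and none passed the edgeR threshold. Of 44 tested genes of the endoplasmic reticulum (ER) for chaperones, folding and degradation, 36 had a fold change above 0, the median was 0.26, and 24 were higher and 1 lower at an unadjusted p below 0.05 (6.23% and 6.62% of all genes). The summed level was 16502 and 17032 CPM in the control samples and 23129, 20302 and 19111 CPM in the βiKO samples. Sdf2l1, a partner of the ER chaperone BiP, had 67.8 and 79.2 CPM in the control samples and 190.1, 121 and 139.8 CPM in the βiKO samples (log2 fold change 1.03 ± 0.19, edgeR adjusted p = 0.144). Log2 fold changes of 0.82 for Creld2, 0.60 for the disulphide isomerase Pdia4 and 0.53 for the secreted ER stress factor Manf were measured, and DESeq2 called 7 genes of the list higher (0.812% of all genes), these 4 among them. Hspa5, BiP itself, named after its value was seen, had 2256 and 2308 CPM in the control samples and 3351, 3234 and 2739 CPM in the βiKO samples (log2 fold change 0.45). Genes of the integrated stress response, which acts through ATF4, gave a median of 0.11 over 36 genes with 7 higher and 1 lower at that p and no call by either tool, and the median was 0.03 without control 2 and 0.18 without control 1. Psat1, of serine synthesis, had a log2 fold change of 0.55, and Ddit3, which encodes CHOP and was named after its value was seen, one of 0.42.

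All 79 cytoplasmic ribosomal protein genes had a fold change above 0, with log2 fold changes of 0.10 to 0.52. The groups did not overlap for 77 of them, all higher in βiKO, as for 15.9% of all genes. At an unadjusted p below 0.05, 59 were higher (74.7%, beside 6.23% of all genes). Neither edgeR nor DESeq2 called any, with a smallest edgeR adjusted p of 0.223. Their summed level was 30112 and 29278 CPM in the control samples and 35670.1, 34874 and 35837 CPM in the βiKO samples. Of 36 initiation and elongation factors of translation, 26 were above 0, with a median of 0.16 and no call. For 77 nuclear genes of oxidative phosphorylation, 73 were above 0, with a median of 0.20. Of them, 33 were higher at an unadjusted p below 0.05 (42.9%, beside 6.23% of all genes). Ndufa1, a subunit of complex I, had 60.8 and 68.5 CPM in the control samples and 104, 80.4 and 95.4 CPM in the βiKO samples, and DESeq2 called it while edgeR did not (edgeR adjusted p = 0.209).

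Cell cycle genes gave a mixed picture. Of 47 tested, 40 were above 0, with a median of 0.35. At an unadjusted p below 0.05, 10 were higher (21.3%, beside 6.23% of all genes) and 1 was lower (2.13%, beside 6.62%). The median was 0.09 without replicate 1 of both groups and 0.56 without βiKO 2. Bub1b, a kinase of the mitotic checkpoint, had 2.01 and 2.39 CPM in the control samples and 4.44, 3.11 and 4.87 CPM in the βiKO samples (log2 fold change 0.91 ± 0.27). Ccnd2, which encodes cyclin D2, the main D cyclin of the adult mouse β cell, had 677 and 696 CPM in the control samples and 523, 488 and 315 CPM in the βiKO samples (log2 fold change -0.64 ± 0.20, edgeR adjusted p = 0.282). The groups of Ccnd2 did not overlap. No gene of this list was called by edgeR, and the inhibitor Cdkn1a was its only DESeq2 call.

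Markers of cells other than endocrine cells were checked list by list. Of 30 acinar markers, 29 had a fold change below 0, with a median of -0.68, in groups that each hold 1 sample with high acinar RNA. The median was 0.78 without control 1 and -1.74 without βiKO 1. The exception was Prss1, a trypsinogen, with 0.929 and 0.0663 CPM in the control samples and 18.5, 2.66 and 3.25 CPM in the βiKO samples (log2 fold change 4.06 ± 1.18, edgeR adjusted p = 0.269). Its adjusted p was 0.00492 in edgeR with the acinar level as a covariate. All 13 endothelial markers were above 0, with a median of 0.29, a summed level of 359 and 356 CPM in the control samples and 377, 439 and 449 CPM in the βiKO samples, and no call. Emcn, endomucin, and Pecam1 had log2 fold changes of 0.36 and 0.46. The lymphocyte markers spread widely within both groups, with a summed level of 45.7 and 9.15 CPM in the control samples and 4.71, 19.0 and 99.3 CPM in the βiKO samples, in which βiKO 3 was the highest sample and βiKO 1 the lowest. Of 14 lymphocyte markers, 5 were too low to test. Erythroid markers summed to 142 and 214 CPM in the control samples and 112, 159 and 529.8 CPM in the βiKO samples, again highest in βiKO 3. Medians were 0.22 for fibroblast and pericyte markers, 0.20 for macrophage markers, 0.26 for Schwann cell markers and -0.13 for duct markers, with no edgeR call. The last 3 changed sign under at least 1 setting of the fit. The fibroblast and pericyte median ran from 0.0019 with a replicate block to 0.47 without βiKO 1. Only 1 of 7 adipocyte markers was tested. The part of these cells in the gene results was not tested.

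**Figure D5:**
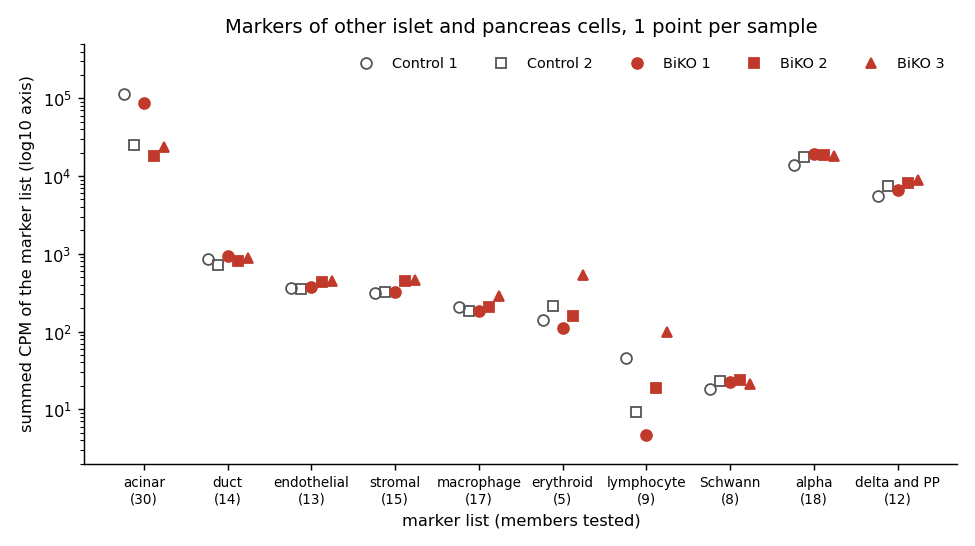
Each point is 1 sample's CPM summed over the tested members of a marker list, on a log10 axis. Acinar RNA is high in replicate 1 of both groups, lymphocyte RNA is spread over more than 10-fold with βiKO 3 at the top, and the endothelial sums of all 5 samples lie close together.

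Set beside R192H knock-in islets on an HFD for 4 weeks, which share no control samples with the βiKO comparison, the calls overlapped in part. The R192H comparison (3 against 3 samples) called 437 of 19137 genes (2.28%), 280 higher (1.46%) and 157 lower (0.82%). Chow-fed R192H and wildtype samples were in the same fit and shared its estimate of the spread. Of the 18 βiKO calls, 16 were tested there, and 9 were called in the same direction, which is 50% of the βiKO list and 2.06% of the R192H list. These 9 were Aldh1a3, Serpina7, Prss23, Gm2115 and Gm34225, which were higher in both, and Trpm5, Itpkb, Rims3 and T2, which were lower in both. The log2 fold change in R192H islets was 2.86 ± 0.32 for Serpina7, 2.03 ± 0.45 for Aldh1a3 and -1.65 ± 0.24 for Trpm5, each called by edgeR. Robo1 had -0.84 there without a call (edgeR adjusted p = 0.182). The p53 targets had smaller values there, with 0.26 ± 0.16 for Ccng1, 0.41 ± 0.55 for Eda2r, 0.75 ± 0.38 for Phlda3 and 0.21 ± 0.37 for Cdkn1a, none of them called, and Bend5 had 0.11 ± 0.33. Dapl1 and Gc, which missed the threshold in βiKO islets, were called in R192H islets, at 2.99 and 1.52. The list medians in R192H islets were -0.24 for β cell transcription factors, -0.58 for glucose sensing, 0.50 for ribosomal proteins, 0.57 for the ER list with 15 calls, 1.32 for the cell cycle with 14 calls, and 0.09 for p53 genes with 1 call, which was lower. Dedifferentiation markers had a median of -0.05 in R192H islets, with 6 of 13 above 0 and 3 called higher. Acinar markers had a median of 1.499 there, with all 30 above 0. Of the 9 shared calls, 5 were left without wildtype replicate 3 or without R192H replicate 2. The models differed in allele, Cre, age and time on the diet, and the difference between them was not tested.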

How the data were processed

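Total RNA from isolated islets was made into stranded libraries from which the authors deposited gene-level expected counts. Per the submitters' processing notes and the study's methods, reads were aligned to mm10 with STAR 2.7.1, quantified with RSEM 1.3.3 and summed to genes with tximport. The annotation release and the use of strand in counting are not given in the sources used here. RSEM splits reads that fit several entries, so overlapping entries share counts.

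Expected counts were rounded and fitted in R 4.3.3 with edgeR 4.0.16 (filterByExpr with a minimum count of 10, TMM, quasi-likelihood test, Benjamini-Hochberg adjustment), with βiKO and control samples only. A gene was called at an adjusted p below 0.05 and a log2 fold change beyond 0.5. DESeq2 1.42.0, the tool of the study, was an alternative. R192H and wildtype samples came from a separately quantified table, so no level is compared across tables. Their chow-fed and HFD samples were fitted together, with a shared filter, scaling and estimate of the spread. R192H against wildtype on the HFD was then read from that fit. Totals were 28618835 to 31887537 counts. Intervals and floors cover counting error only. Symbols were found for 66.7% of identifiers and 89.5% of tested genes, and loci were read from GENCODE M21. Steps were tested on simulated data.

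The members and the 30 gene lists were chosen with earlier results of these data known, and the p53 list after the called genes were seen. Genes were named if called, if named in the study, if among the 10 smallest p per direction outside the calls with groups apart and at least 1 CPM, or if among the 4 smallest p of a list, with fixed hormone genes, Esr1 and Pdx1 added. Replicate numbers were shared by 2 samples per group, whose deviations correlated by 0.0729 and 0.0382, and they were not taken to pair samples. That check is weak, because with 2 controls the deviations mirror each other. Mitochondrial RNA made up 2.51% of counts in control 1 and 2.52% in βiKO 1. It made up 3.66% in control 2, 3.57% in βiKO 2 and 3.25% in βiKO 3. Whether same-numbered samples shared a preparation was not tested. Alternatives were other scalings and filters, DESeq2, a replicate block, an acinar covariate and the omission of each sample. The chow-fed samples entered the R192H fit as described above, and no comparison of them is reported. A few results on single genes are not reported here.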

Additional observations from a re-analysis of the deposited data

Results flagged for a closer look

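Among the genes named in this text, a pair had groups that did not overlap in either model, in opposite directions. In βiKO islets the groups did not overlap for 15.9% of all genes higher and 16.7% lower. The number of such pairs over all genes is not given, and Mdm2 was named after its values were seen. The difference between the models was not tested. Icam1, the leukocyte adhesion molecule, had a log2 fold change of 0.57 in βiKO islets, where each sample was above both controls, and of -0.58 in R192H islets, where each sample was below every wildtype sample. Mdm2, the ligase that degrades p53, had 0.31 in βiKO islets and -0.27 in R192H islets in the same sense. Without βiKO 3 the βiKO values were 0.29 for Icam1 and 0.15 for Mdm2. Neither gene was called by edgeR in either comparison.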

How the results depend on the processing

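The count of 18 calls depended on the settings. Scaling by total counts gave 30 (22 higher, 8 lower), no filter on low counts 697 and DESeq2 251. A replicate block gave 88 (49 higher, 39 lower, all 18 among them), although the numbers were not taken to pair the samples. Size factors of the RLE kind and a minimum of 10 counts in every sample gave 19 each, and the acinar covariate 14. Leaving out 1 sample gave 2 to 28 calls, the low end without control 1 and the high end without βiKO 3. Leaving out replicate 1 of both groups, the samples of highest acinar level, was chosen after seeing the data and gave 2. Calls shared with R192H islets numbered 5 to 9 when 1 R192H or wildtype sample on the HFD was left out.

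Fold changes of 4 hormone genes near 0 changed sign. Ins1 was at -0.0856 with the replicate block and ran from -0.0864 (without βiKO 3) to 0.232 (without βiKO 1) over the omissions of 1 sample. Ins2 ran from -0.151 (without control 1) to 0.00111 (without control 2), and Gcg was at -0.00772 without both replicates 1. Sst was at -0.0418 with the replicate block, -0.0322 with the acinar covariate, -0.0868 without control 1, 0.116 without control 2, -0.000585 without βiKO 2, -0.0430 without βiKO 3 and -0.0516 without both replicates 1. The causes were not tested. Every other named gene kept its direction. Of 390 list medians recomputed over 30 lists, 28, in 14 lists, moved by more than the spread between samples, and the medians of 14 lists changed sign under at least 1 setting. The latter were mostly lists near 0 or of other cell types, among them the acinar list (-1.74 to 0.78), the lymphocyte list (-0.12 without βiKO 3, against 1.60) and the erythroid list (-0.34 without βiKO 3, against 0.67). The medians of the β cell transcription factors ran from -0.32 to -0.20, of glucose sensing from -0.22 to -0.17, of ribosomal proteins from 0.23 to 0.27, of the ER list from 0.15 to 0.30, of the cell cycle from 0.09 to 0.56, of p53 genes from 0.18 to 0.38, of dedifferentiation markers from 0.30 to 0.47 and of hormone and granule genes from 0.10 to 0.22. No scaling moved the median of all genes by more than 0.1 log2 units. Genes with too few counts for the filter, Pax4 among them, could not be compared.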

Other observations

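Of 24 genes that β cells normally keep silent (disallowed genes), 15 had a fold change above 0, the median was 0.16 and none was called by edgeR or DESeq2. Oat, ornithine aminotransferase, was the only one at an unadjusted p below 0.05, where 6.23% of all genes were higher. It had 18.3 and 17.7 CPM in the control samples and 23.2, 24.6 and 25.9 CPM in the βiKO samples. Of 18 tested genes around the prolactin receptor, STAT5 and serotonin, which serve β cell expansion in pregnancy, 7 were above 0 and the median was -0.03. At an unadjusted p below 0.05, 4 were lower (22.2%, beside 6.62% of all genes) and 1 was higher, and groups did not overlap for 5 lower members (27.8%, beside 16.7%) and 2 higher. Socs2, a STAT5 target that dampens cytokine signals, had 22.4 and 19.3 CPM in the control samples and 13.8, 11.4 and 13.0 CPM in the βiKO samples (log2 fold change -0.71 ± 0.13, edgeR adjusted p = 0.141), and DESeq2 called it. Maob, a monoamine oxidase that breaks down amines, had a log2 fold change of -0.41 ± 0.08. The groups were apart in these 3 genes. Itpr1, a receptor that releases calcium from the ER, had 195 and 188 CPM in the control samples and 165, 165 and 179.8 CPM in the βiKO samples.

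Interferon and MHC class I genes had a median of 0.02, with 16 of 32 above 0. Only Usp18, which restrains interferon signalling (0.36), was higher at an unadjusted p below 0.05, beside 6.23% of all genes. NF-κB and cytokine genes had a median of 0.16. Vcam1, an adhesion molecule, had 3.35 and 3.98 CPM in the control samples and 4.16, 7.20 and 10.2 CPM in the βiKO samples (edgeR adjusted p = 0.324). Immediate early genes had a median of 0.00, which ran from -0.33 without control 2 to 0.28 without replicate 1 of both groups, and Nr4a1 (-0.45) had overlapping groups and ran from -0.74 to -0.08 over the omissions of 1 sample. Cholesterol synthesis genes had a median of 0.06. At an unadjusted p below 0.05, 2 were higher (6.25%, beside 6.23% of all genes) and 3 lower (9.38%, beside 6.62%), near those shares. Of 9 genes of a list of estrogen receptors, related receptors and responsive genes, 5 were tested and edgeR called Esr1 alone. Spp1, osteopontin, a duct and macrophage gene, had 64.3 and 52.6 CPM in the control samples and 103, 135 and 171 CPM in the βiKO samples (log2 fold change 1.22 ± 0.20, edgeR adjusted p = 0.1303), and DESeq2 called it.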
